A study of Mus musculus with 15 samples.

Results

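The proteasome is the complex that takes apart proteins tagged with ubiquitin, and 45 genes whose symbols begin with Psm and that the rule kept were followed through cultures of primary mouse hippocampal neurons given acetate, an inhibitor of the enzyme ACSS2, or both. The members are all genes of the deposited count table whose symbol is Psm, a letter from a to g and a number, leaving out the immunoproteasome genes Psmb8, Psmb9 and Psmb10 and pseudogene symbols, with at least 150 counts summed over the 15 libraries. Of 24498 genes in the table, 47 symbols matched and 45 reached the count minimum. Just outside it were Psma8, with 7 counts, and Psmb11, with 46 counts, and just inside it were Psme2b, with 495 counts, and Psmc3ip, with 2506 counts. All 45 passed the filter on low counts and were among the 15075 genes tested. Of the 45, 31 encode subunits of the 26S complex, 6 encode activators or an inhibitor of the complex, 7 encode assembly chaperones, and 1, Psmc3ip, carries a matching symbol although its product acts in meiotic recombination.

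The cultures came as plated cells from a university neuron core facility and had differentiated for 7 days before they were exposed for 24 h. There were 4 groups: DMSO with medium vehicle (4 libraries), DMSO with 5 mM acetate (4 libraries), 20 µM ACSS2 inhibitor with medium vehicle (3 libraries) and 20 µM ACSS2 inhibitor with 5 mM acetate (4 libraries). ACSS2 joins acetate to coenzyme A, and the series used acetate to imitate heavy drinking. The labels give neither the compound's name, nor the mouse strain, sex or age, and they do not state whether the libraries of a group are separate cultures or animals. All p-values therefore refer only to the spread among these libraries.

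The 26S proteasome consists of a barrel of stacked alpha and beta rings, in which the proteolytic sites face a closed chamber, and of a regulatory particle that sits on the end of the barrel, recognises ubiquitin chains, removes them and threads the unfolded protein inside. A ring of ATPases in the regulatory particle drives the unfolding. In neurons the complex is known for turning over synaptic proteins, and its subunit genes are known to be transcribed together under the factor Nrf1, encoded by Nfe2l1, which binds antioxidant response elements in their promoters. In cells exposed to interferon, Psmb8, Psmb9 and Psmb10 replace the standard catalytic subunits.

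A library is given by its group with its replicate number. The libraries held 19688231 to 39234799 gene counts (median 22722121), and levels are given as CPM, which are counts relative to TMM-scaled library size, so that 1 count was worth 0.0277 to 0.0541 CPM. Fold changes are log2 values with standard errors (SE), and adjusted p stands for the quasi-likelihood test of edgeR, adjusted by Benjamini and Hochberg's method over all 15075 genes. Rose and fell are written only of genes whose adjusted p was under 0.05. The 14 pan-neuronal markers summed to 4795 to 7453 CPM in DMSO vehicle and 9426 to 10855 CPM in DMSO acetate, and none was at 0 in any library. Markers of other cells were present too, and the 10 astrocyte markers summed to 4552 to 12499.7 CPM in DMSO vehicle, 3596 to 4460.2 CPM in DMSO acetate, 4298 to 13602 CPM in inhibitor vehicle and 3162 to 4729 CPM in inhibitor acetate. In 3 of the 4 DMSO vehicle libraries and 2 of the 3 inhibitor vehicle libraries the astrocyte sum was above the pan-neuronal sum, on a scale not corrected for gene length, so neuronal markers were present but did not stand alone. The microglia and macrophage list of 15 genes summed to 173 to 873 CPM in DMSO vehicle, 36.1 to 62.1 CPM in DMSO acetate, 27.8 to 742 CPM in inhibitor vehicle and 25.5 to 77.9 CPM in inhibitor acetate, with no gene of either list at 0 in every library of a group. A non-neuronal score was taken as the mean, over 5 lists (astrocytes, oligodendrocytes, microglia, vessel cells, meninges), of each list's mean log2 CPM. It ranged from 3.47 to 4.67 in DMSO vehicle, from 2.47 to 2.56 in DMSO acetate, from 2.30 to 4.59 in inhibitor vehicle and from 2.26 to 2.56 in inhibitor acetate. The lowest scores of the vehicle groups belonged to DMSO vehicle 1 (3.47, the others being at 4.47 or more) and to inhibitor vehicle 2 (2.30, the others being at 4.31 or more), so each count of changed members is also given without these libraries. The oligodendrocyte list was mixed in these libraries. Its mean log2 CPM was the lowest of their groups (3.16 and 2.58), but its summed level was the highest (879 and 1094 CPM). That sum ranged from 284 to 879 CPM in DMSO vehicle and from 706 to 991 CPM in DMSO acetate.

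Members differed widely in level before any treatment. Per kilobase of exon, the scale on which genes can be compared, the DMSO vehicle libraries held most of Psmb6, a catalytic beta subunit, at 357 ± 19.5 CPM per kb (SD, n = 4). It was followed by the beta subunit Psmb4 at 254 ± 16.5 and the alpha subunit Psma7 at 250.3 ± 12.9, which differed by less than their SDs. The lowest subunits of the 26S complex were the ATPase Psmc6 at 21.3 ± 2.61, and the regulatory particle subunits Psmd11 at 23.5 ± 2.43 and Psmd12 at 28.7 ± 3.94 CPM per kb, of which Psmc6 and Psmd11 differed by less than their SDs. The 7 assembly chaperones lay between 8.12 ± 0.373 (Psmd5) and 46.7 ± 2.83 CPM per kb (Psmg4). Of the activators, Psme1 stood at 88.9 ± 5.51 CPM per kb and its partner Psme2 at 70.8 ± 8.39, while Psme4 stood at 6.31 ± 0.502. Psme2b, a single-exon near copy of Psme2, was lowest of all 45 at 1.91 ± 0.334 CPM per kb, so that the division of reads between these near-identical genes is uncertain. Since the strand setting of the counting is not given, levels are also uncertain for members whose exons overlap those of another gene, which besides those named with their values are Psma4, Psma5, Psmb5, Psmc3, Psmd1, Psmd3, Psme1, Psme2b and Psmg3.

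**Figure D1:**
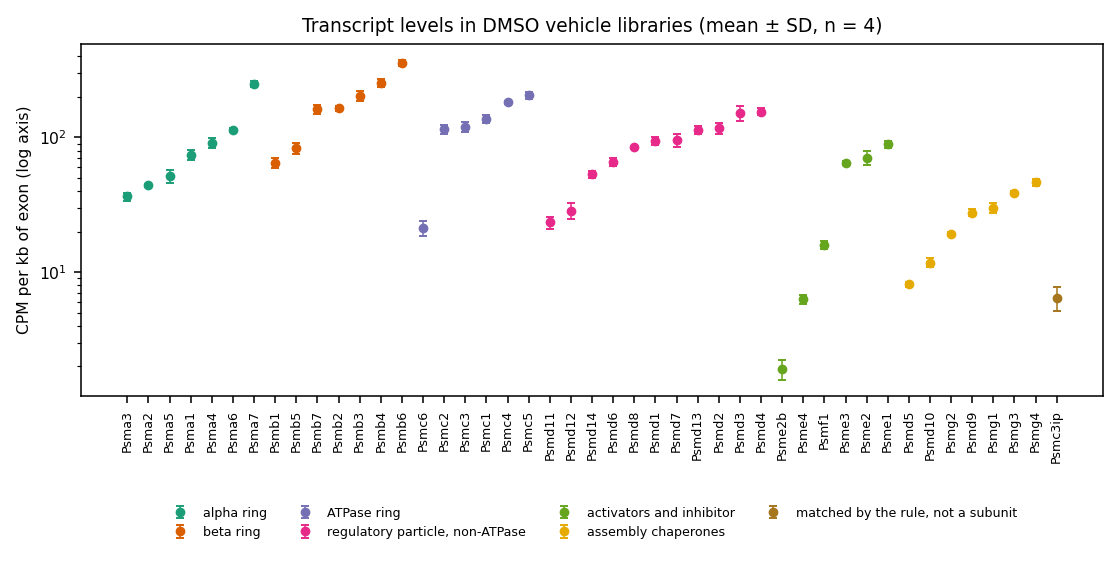
Level of each of the 45 proteasome genes in the 4 DMSO vehicle libraries, as CPM per kilobase of exon on a log axis, with points for the mean, bars for the SD and colours for the role in the complex. Psmb6 lies highest at 357 ± 19.5 and Psme2b lowest at 1.91 ± 0.334.

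The promoters of these genes are shown for the members that carry the core of the antioxidant response element, since that element is where Nrf1 is known to bind. The RefSeq promoter table (build GRCm38.p6, 250 bases before to 50 bases after each start) held 38 of the 45 members with 41 promoters. The others were Psmb1, Psmb2, Psmb7, Psmc3, Psmd3, Psmd7 and Psmg2. The core, spelled TGACNNNGC and searched on both strands in any overlap, was in 6 of 41 member promoters (14.6%) and in 4071 of all 32851 promoters (12.4%). The box bound by the factor NF-Y, spelled CCAAT and searched the same way, was in 13 of the 41 (31.7%) and in 12289 of all promoters (37.4%). Both shares among members were thus near those of all promoters. The 4 subunits of the 26S complex with the core are printed 5′ to 3′ from 250 bases before the RefSeq start to the base before the earliest annotated start, with the match in capitals. Matches begin 47 (Psmb5), 9 (Psmb6), 227 (Psmc6) and 247 bases (Psmd12) before the RefSeq start, and those of Psmc6 and Psmd12 read as the core on the opposite strand.
Psmb5, chr14:54618023-54618245, minus strand: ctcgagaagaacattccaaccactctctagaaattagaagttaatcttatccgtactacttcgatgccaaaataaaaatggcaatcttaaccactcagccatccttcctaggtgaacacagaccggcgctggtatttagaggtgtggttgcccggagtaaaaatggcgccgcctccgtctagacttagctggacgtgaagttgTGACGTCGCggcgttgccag
Psmb6, chr11:70525107-70525356, plus strand: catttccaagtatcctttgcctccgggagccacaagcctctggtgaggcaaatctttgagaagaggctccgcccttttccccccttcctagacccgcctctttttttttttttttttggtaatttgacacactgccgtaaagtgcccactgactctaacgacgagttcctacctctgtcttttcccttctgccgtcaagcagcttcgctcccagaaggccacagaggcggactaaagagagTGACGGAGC
Psmc6, chr14:45329574-45329787, plus strand: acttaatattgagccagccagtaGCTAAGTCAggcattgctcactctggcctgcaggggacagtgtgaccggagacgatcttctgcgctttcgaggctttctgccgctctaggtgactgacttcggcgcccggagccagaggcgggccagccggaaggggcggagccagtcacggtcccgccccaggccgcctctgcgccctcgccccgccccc
Psmd12, chr11:107479278-107479483, plus strand: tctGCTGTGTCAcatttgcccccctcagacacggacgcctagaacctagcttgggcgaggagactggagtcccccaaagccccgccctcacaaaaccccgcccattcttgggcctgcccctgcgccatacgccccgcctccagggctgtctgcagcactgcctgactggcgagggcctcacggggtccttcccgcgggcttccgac

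Among these 4 genes, Psmb5 and Psmb6 hold the core close to the start and Psmc6 and Psmd12 hold it near the far end of the window. All 4 rose in at least 1 acetate comparison below with TMM scaling and in none with neuronal scaling. The core was also in Psmd9, which rose with acetate without inhibitor, and in Psme4, which fell there, both with TMM scaling. In that comparison 23 of all 45 members and 23.7% of all genes rose. A link between the core and the response was not tested. A match of letters is a description of the sequence and was not tested as a binding site.

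The first comparison asked how transcripts respond to acetate without the inhibitor. With TMM scaling, 23 of the 45 members rose and 2, Psmd5 and Psme4, fell, where 23.7% of all 15075 genes rose and 27.5% fell, but the calls turned to 2 raised and 12 lowered when libraries were scaled by their totals alone (12.1% and 45% of all genes), and to 0 raised and 45 lowered when scaled on pan-neuronal markers (0.869% and 87.7% of all genes). The median fold of the members was 0.20 against -0.03 over all genes with TMM scaling, -0.03 against -0.26 with library totals, and -0.70 against -0.94 with neuronal scaling. The scaling shifts the folds of all genes by nearly the same amount, so the distance between these medians, 0.23 with TMM scaling, is set by construction to be nearly equal under all 3 and is no sign of stability. In shares of a library's gene counts, which need no scaling factor, the 31 subunits of the 26S complex took 0.61% ± 0.02 of DMSO vehicle (SD, n = 4) and also 0.61% ± 0.02 of DMSO acetate (SD, n = 4). Fewer cells of a type and less RNA per cell cannot be told apart in such bulk libraries. With upper-quartile scaling 17 members rose and 4 fell (20.4% and 31.5% of all genes), and without DMSO vehicle 1 and inhibitor vehicle 2, 28 rose and 1 fell (28% and 31.6% of all genes).

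The non-neuronal score moved with this comparison: its 4 values in DMSO acetate (2.47 to 2.56) lay below all 4 in DMSO vehicle (3.47 to 4.67). In a fit with this score as covariate, 2 members rose and 1 fell (8.34% and 6.91% of all genes), and the members' median lay 0.05 above that of all genes. DMSO vehicle 1, the library of its group with the lowest score, also had its group's highest summed level of the 31 subunits, at 6120 CPM (TMM-scaled) against 5345 to 5682 CPM. As the scores of these groups did not overlap, acetate and score cannot be cleanly told apart in the covariate fit, here or for single genes. Beyond these values, the part of the marker change in the members' change was not tested. Leaving out single libraries left 13 (without DMSO vehicle 2, when 20.1% of all genes rose) to 26 members raised (without DMSO vehicle 1, when 24.6% rose).

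**Figure D2:**
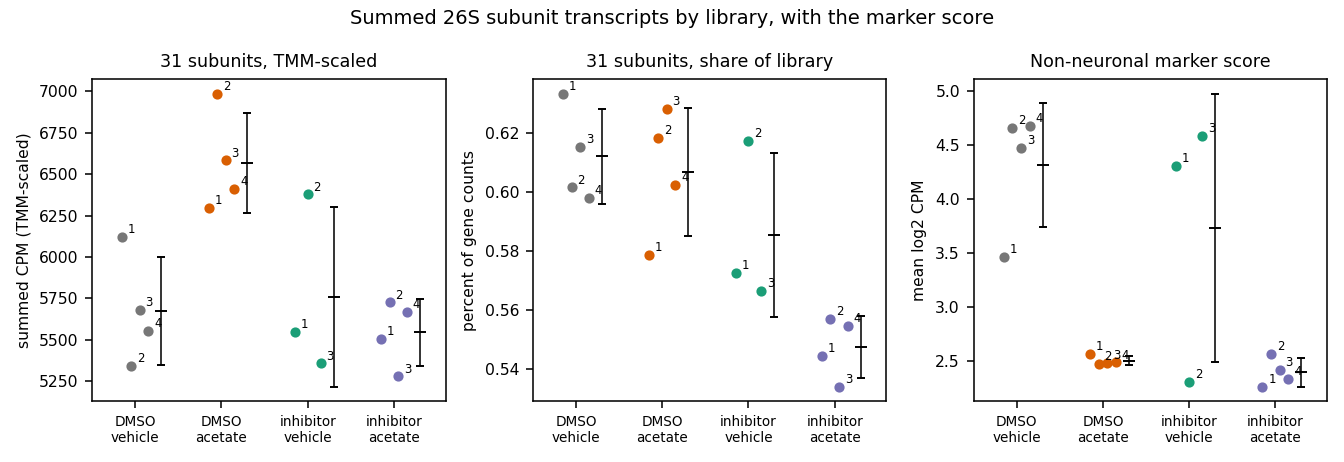
Summed level of the 31 subunits of the 26S complex in each library as TMM-scaled CPM (left) and as a percent of gene counts (middle), with the non-neuronal marker score in mean log2 CPM (right); points are libraries numbered by replicate, bars show mean ± SD, and the vertical axes do not start at 0. The 4 DMSO acetate libraries lie at 6295 to 6987 CPM, above the 5345 to 6120 CPM of DMSO vehicle, while as a share of gene counts these groups overlap and inhibitor acetate lies lowest.

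All 7 alpha subunits, which form the outer rings and the gate of the barrel, had folds above 0 with TMM scaling and 5 rose, with a median of 0.20, but 4 of the 7 were below 0 with library totals and all 7 with neuronal scaling. For this and the role groups below, 23.7% of all genes rose and 27.5% fell with TMM scaling, and 7112 of 15075 folds were above 0. The median of all genes was -0.26 with library totals and -0.94 with neuronal scaling. Psma7 (chr2:180036374-180042433, minus strand) stood at 307, 273, 303 and 297 CPM in the DMSO vehicle libraries, 356, 411, 373 and 350.3 CPM in DMSO acetate, 304, 367 and 287 CPM in inhibitor vehicle and 302, 318, 269 and 311 CPM in inhibitor acetate. Each DMSO acetate library was above each DMSO vehicle library, and the inhibitor groups overlapped each other. Its fold in this comparison was 0.34 (SE 0.09, edgeR adjusted p = 0.00448). Psma3 (chr12:70974621-70996347, plus strand) stood at 111, 108, 99.5 and 96.6 CPM in the DMSO vehicle libraries, 116, 138, 129 and 137 CPM in DMSO acetate, 95.2, 122 and 94.9 CPM in inhibitor vehicle and 114, 114, 116 and 121 CPM in inhibitor acetate. Its DMSO acetate libraries were also all above those of DMSO vehicle, the closest pair being DMSO acetate 1 and DMSO vehicle 1. Its fold was 0.32 (SE 0.09, edgeR adjusted p = 0.00585). Psma1, Psma2 and Psma5 rose with folds of 0.23, 0.17 and 0.20, and Psma4 and Psma6 had folds of 0.18 and 0.09 that did not pass.

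The beta rings hold the proteolytic sites, and 6 of 7 beta subunits rose with TMM scaling, with a median fold of 0.28, 6 of 7 staying above 0 with library totals but none of 7 with neuronal scaling. Psmb5, the chymotrypsin-like subunit and the one that proteasome-blocking drugs bind (chr14:54614119-54618022, minus strand), stood at 77.4, 65.1, 78.1 and 78.8 CPM in the DMSO vehicle libraries, 87.3, 120.4, 102 and 96.2 CPM in DMSO acetate, 74.2, 86.7 and 71.5 CPM in inhibitor vehicle and 78.6, 86.5, 65.4 and 74.5 CPM in inhibitor acetate. All DMSO acetate libraries were above all of DMSO vehicle, with DMSO acetate 2 the highest and DMSO vehicle 2 the lowest, while both inhibitor groups lay below all DMSO acetate libraries. The fold was 0.44 (SE 0.11, edgeR adjusted p = 0.0037). Psmb6, the caspase-like subunit (chr11:70525367-70527858, plus strand), stood at 284, 263, 296 and 297 CPM in the DMSO vehicle libraries, 305, 372, 329.9 and 330.1 CPM in DMSO acetate, 289, 334 and 274 CPM in inhibitor vehicle and 263, 270.0, 236 and 259 CPM in inhibitor acetate. Its DMSO acetate libraries again lay above DMSO vehicle, and all 4 inhibitor acetate libraries lay below all of inhibitor vehicle. The fold without inhibitor was 0.23 (SE 0.08, edgeR adjusted p = 0.0258). Psmb7, the trypsin-like subunit (chr2:38588036-38644087, minus strand), stood at 209, 173, 187 and 185 CPM in the DMSO vehicle libraries, 203, 246, 239.6 and 228 CPM in DMSO acetate, 186, 242 and 188 CPM in inhibitor vehicle and 195, 199.5, 191 and 186 CPM in inhibitor acetate. DMSO acetate 1 lay below DMSO vehicle 1, so that these groups overlapped. The fold was 0.28 (SE 0.09, edgeR adjusted p = 0.0168), but -0.03 in the fit with the score as covariate. Exons of Psmb7 overlap those of Nek6 on the other strand, and the strand setting of the counting is not given. Whether the counts of Psmb7 include reads of Nek6 is therefore uncertain.

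Beta subunits without a catalytic site rose as well with TMM scaling, and not with neuronal scaling. Psmb3 (chr11:97703399-97713500, plus strand) stood at 167, 138, 159 and 159 CPM in the DMSO vehicle libraries, 192, 233, 197 and 208 CPM in DMSO acetate, 164, 201 and 139.8 CPM in inhibitor vehicle and 158, 158, 139 and 163 CPM in inhibitor acetate. The DMSO acetate libraries were all above DMSO vehicle, and the inhibitor acetate libraries were in the range of DMSO vehicle. Its fold was 0.41 (SE 0.10, edgeR adjusted p = 0.0037). Psmb1 (chr17:15475021-15499751, minus strand) stood at 250.4, 203, 223 and 215 CPM in the DMSO vehicle libraries, 267, 301, 288 and 285 CPM in DMSO acetate, 227, 278 and 215 CPM in inhibitor vehicle and 241, 237, 234 and 255 CPM in inhibitor acetate. DMSO acetate lay above DMSO vehicle in every library, and inhibitor vehicle 2 stood apart from the other libraries of its group. Its fold was 0.35 (SE 0.08, edgeR adjusted p = 0.00291). Psmb4 rose by 0.26, and Psmb2, with 0.12, did not pass.

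**Figure D3:**
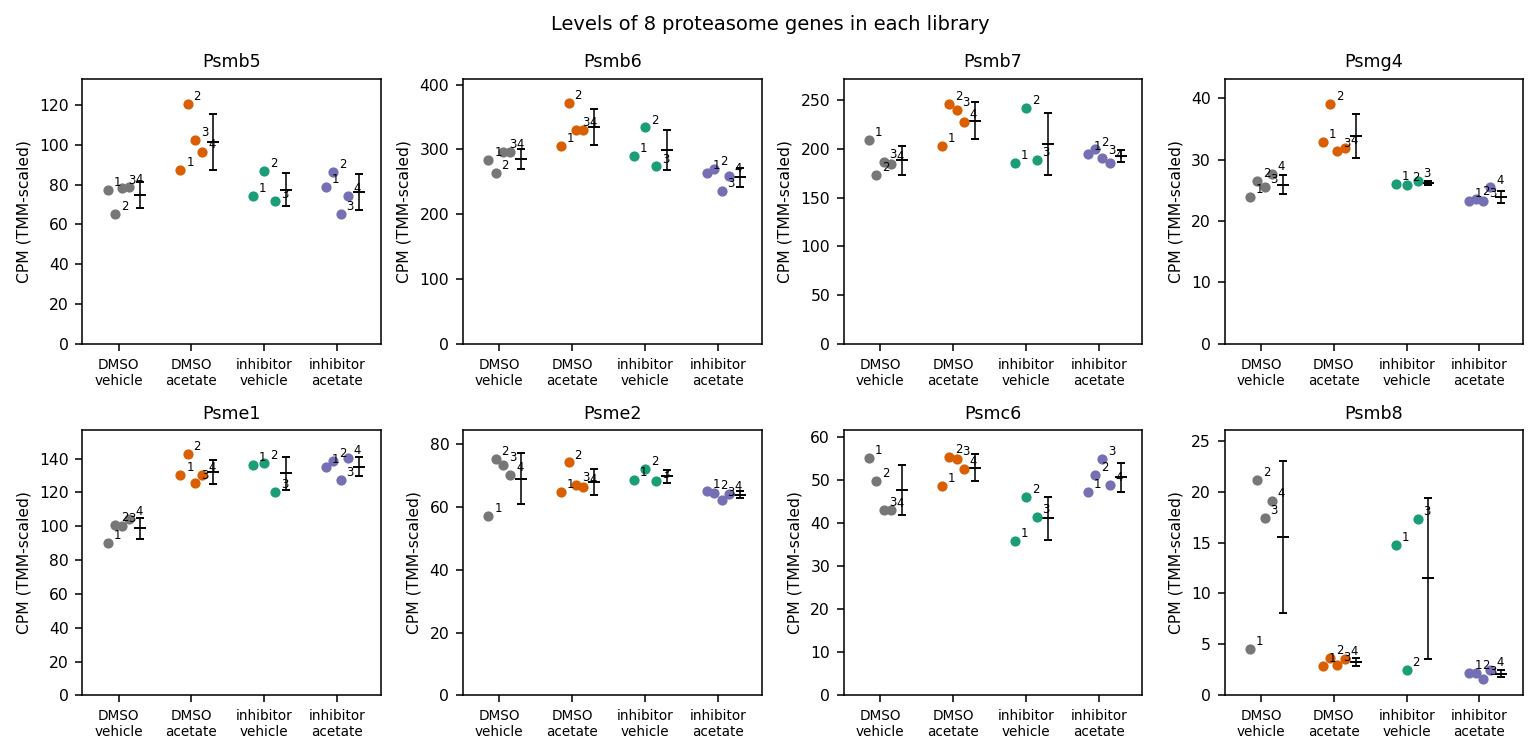
TMM-scaled CPM of 8 proteasome genes in each library, with points numbered by replicate and bars for mean ± SD; Psmb8 is the immunoproteasome gene kept for comparison. Psme1 is lowest in the 4 DMSO vehicle libraries (90.1 to 104 CPM), Psmb5 and Psmg4 are highest in the DMSO acetate libraries, and Psmb8 is low in DMSO vehicle 1 and inhibitor vehicle 2.

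The 6 ATPases that unfold substrates were less uniform: 2 rose with TMM scaling, 5 had folds above 0 and the median was 0.17, but 5 of 6 were below 0 with library totals and all 6 with neuronal scaling. Psmc5 (chr11:106256154-106263120, plus strand) stood at 290.2, 249, 275 and 268 CPM in the DMSO vehicle libraries, 304, 354, 305 and 316 CPM in DMSO acetate, 273, 321 and 256 CPM in inhibitor vehicle and 260.1, 269, 242 and 269 CPM in inhibitor acetate. All DMSO acetate libraries exceeded all DMSO vehicle libraries, and inhibitor acetate lay within or below the DMSO vehicle range. The fold was 0.24 (SE 0.08, edgeR adjusted p = 0.021). Psmc1 (chr12:100110154-100123405, plus strand) stood at 231, 201, 229 and 209 CPM in the DMSO vehicle libraries, 234, 239, 263 and 269 CPM in DMSO acetate, 205, 258 and 224 CPM in inhibitor vehicle and 223, 222, 214 and 247 CPM in inhibitor acetate. The lowest DMSO acetate library was just above the highest of DMSO vehicle. The fold was 0.21 (SE 0.08, edgeR adjusted p = 0.0442), and -0.01 both with library totals and with the score covariate. Psmc2, Psmc3, Psmc4 and Psmc6 had folds of 0.20, 0.04, -0.07 and 0.15 that did not pass.

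Of the 11 other subunits of the regulatory particle, 6 rose with TMM scaling (Psmd1, Psmd3, Psmd4, Psmd12, Psmd13 and Psmd14) with a group median of 0.22, which was 0.00 with library totals and -0.66 with neuronal scaling. Psmd14, the enzyme that cuts ubiquitin chains off a substrate (chr2:61711694-61800376, plus strand), stood at 89.1, 81.8, 78.5 and 78.8 CPM in the DMSO vehicle libraries, 95.5, 106, 106 and 102 CPM in DMSO acetate, 69.7, 84.2 and 75.9 CPM in inhibitor vehicle and 84.6, 92, 88.3 and 90.6 CPM in inhibitor acetate. Acetate libraries were above vehicle libraries both without and with the inhibitor. Its fold without inhibitor was 0.32 (SE 0.07, edgeR adjusted p = 0.00144). Psmd3, a scaffold subunit of the lid (chr11:98682554-98695979, plus strand), stood at 382, 285, 311 and 328 CPM in the DMSO vehicle libraries, 455, 456, 399 and 408 CPM in DMSO acetate, 343, 337 and 302 CPM in inhibitor vehicle and 366, 405, 335 and 367 CPM in inhibitor acetate. DMSO acetate lay above DMSO vehicle throughout, with DMSO vehicle 1 the closest. The fold was 0.40 (SE 0.09, edgeR adjusted p = 0.0025). Psmd4, a ubiquitin receptor, and Psmd13 rose by 0.32 and 0.28. At the other end, Psmd2, the largest scaffold of the base together with Psmd1, had a fold of -0.14 and Psmd11 had -0.03, neither of which passed, while Psmd1 rose by 0.25.

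The activators are caps that open the barrel without ATPases, and they were counted in a group of 6 with the inhibitor gene Psmf1. Of this group 1 was raised and 1 lowered with TMM scaling, with a median of -0.06. With library totals 1 was raised and 4 lowered (12.1% and 45% of all genes), and with neuronal scaling all 6 were lowered (87.7% of all genes). Psme1 (chr14:55578123-55581529, plus strand) stood at 90.1, 101, 100.1 and 104 CPM in the DMSO vehicle libraries, 130.1, 142, 126 and 130.2 CPM in DMSO acetate, 136, 137 and 120.1 CPM in inhibitor vehicle and 135, 138, 127 and 140.1 CPM in inhibitor acetate. The 4 DMSO vehicle libraries were the lowest of all 15, with no overlap with any other group. The fold with acetate was 0.42 (SE 0.07, edgeR adjusted p = 0.000209), and 0.19 with library totals and -0.50 with neuronal scaling. Psme2, which encodes the other subunit of the same ring-shaped cap and lies next to Psme1 on the chromosome (chr14:55587441-55591113, minus strand), stood at 57.2, 75.3, 73.5 and 70.3 CPM in the DMSO vehicle libraries, 64.9, 74.3, 67 and 66.5 CPM in DMSO acetate, 68.8, 72.3 and 68.2 CPM in inhibitor vehicle and 65, 64.4, 62.3 and 64.2 CPM in inhibitor acetate. The DMSO groups overlapped, and DMSO vehicle 1 was lowest of all 15 libraries. The fold was -0.02 (SE 0.08, edgeR adjusted p = 0.852), and the difference between the folds of these partners was not tested. Psme3, which forms the nuclear cap (chr11:101316213-101323537, plus strand), stood at 178, 165, 171 and 177 CPM in the DMSO vehicle libraries, 201, 192, 181 and 184 CPM in DMSO acetate, 178, 162 and 169.8 CPM in inhibitor vehicle and 172, 192, 163 and 191 CPM in inhibitor acetate. DMSO acetate lay above DMSO vehicle in every library. The fold of 0.14 (SE 0.06, edgeR adjusted p = 0.0942) did not pass. Psme4, the large single-chain activator of the nucleus (chr11:30771726-30880361, plus strand), stood at 44.2, 43.4, 37.7 and 38.7 CPM in the DMSO vehicle libraries, 33, 32.1, 34.8 and 39.6 CPM in DMSO acetate, 34.1, 32.7 and 32.5 CPM in inhibitor vehicle and 32, 24.7, 32.6 and 31.5 CPM in inhibitor acetate. DMSO acetate 4 overlapped the DMSO vehicle range. The fold was -0.24 (SE 0.09, edgeR adjusted p = 0.0496), a call close to the threshold that did not pass with RLE scaling (edgeR adjusted p = 0.0538) or without DMSO vehicle 1 and inhibitor vehicle 2 (edgeR adjusted p = 0.0867).

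Of the 7 assembly chaperones, helpers that leave the finished complex, 3 rose (Psmg3, Psmg4 and Psmd9) and 1, Psmd5, fell with TMM scaling, with a median of 0.13. With library totals none rose and 2 fell (12.1% and 45% of all genes). With neuronal scaling all 7 fell (87.7% of all genes). Psmg4, a chaperone of alpha ring assembly that acts with Psmg3 (chr13:34162964-34178173, plus strand), stood at 24, 26.5, 25.6 and 27.7 CPM in the DMSO vehicle libraries, 32.8, 39.1, 31.5 and 31.9 CPM in DMSO acetate, 26, 25.8 and 26.5 CPM in inhibitor vehicle and 23.2, 23.6, 23.3 and 25.5 CPM in inhibitor acetate. DMSO acetate stood above every library of the other groups, and 3 of the 4 inhibitor acetate libraries were the lowest of all. The fold was 0.38 (SE 0.08, edgeR adjusted p = 0.000947), and its partner Psmg3 rose by 0.38 (SE 0.11, edgeR adjusted p = 0.00976). Psmd5, a chaperone of the base (chr2:34849734-34874968, minus strand), stood at 37.4, 36.4, 35.4 and 33.6 CPM in the DMSO vehicle libraries, 29.2, 29.4, 31.3 and 27.8 CPM in DMSO acetate, 30.7, 32.6 and 32.2 CPM in inhibitor vehicle and 31.4, 29.4, 29.8 and 27.3 CPM in inhibitor acetate. The DMSO vehicle libraries were the highest of all 15, without overlap. The fold was -0.28 (SE 0.06, edgeR adjusted p = 0.00251). Psmc3ip, the member that is no proteasome gene (chr11:101091823-101095436, minus strand), stood at 10.9, 7.82, 7.32 and 7.39 CPM in the DMSO vehicle libraries, 6.80, 7.26, 7.68 and 7.41 CPM in DMSO acetate, 5.34, 5.33 and 4.76 CPM in inhibitor vehicle and 6.66, 5.33, 5.33 and 5.31 CPM in inhibitor acetate. DMSO vehicle 1 was the highest, and all inhibitor libraries were below all DMSO libraries. The acetate fold of -0.20 (SE 0.14, edgeR adjusted p = 0.225) did not pass. Its exons overlap those of Mlx on the other strand, so its reads are uncertain.

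Counted by libraries, 21 of the 45 members had all 4 DMSO acetate libraries above all 4 of DMSO vehicle, as did 22.1% of all genes, and 1 had them all below, as did 23.3%.

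**Figure D4:**
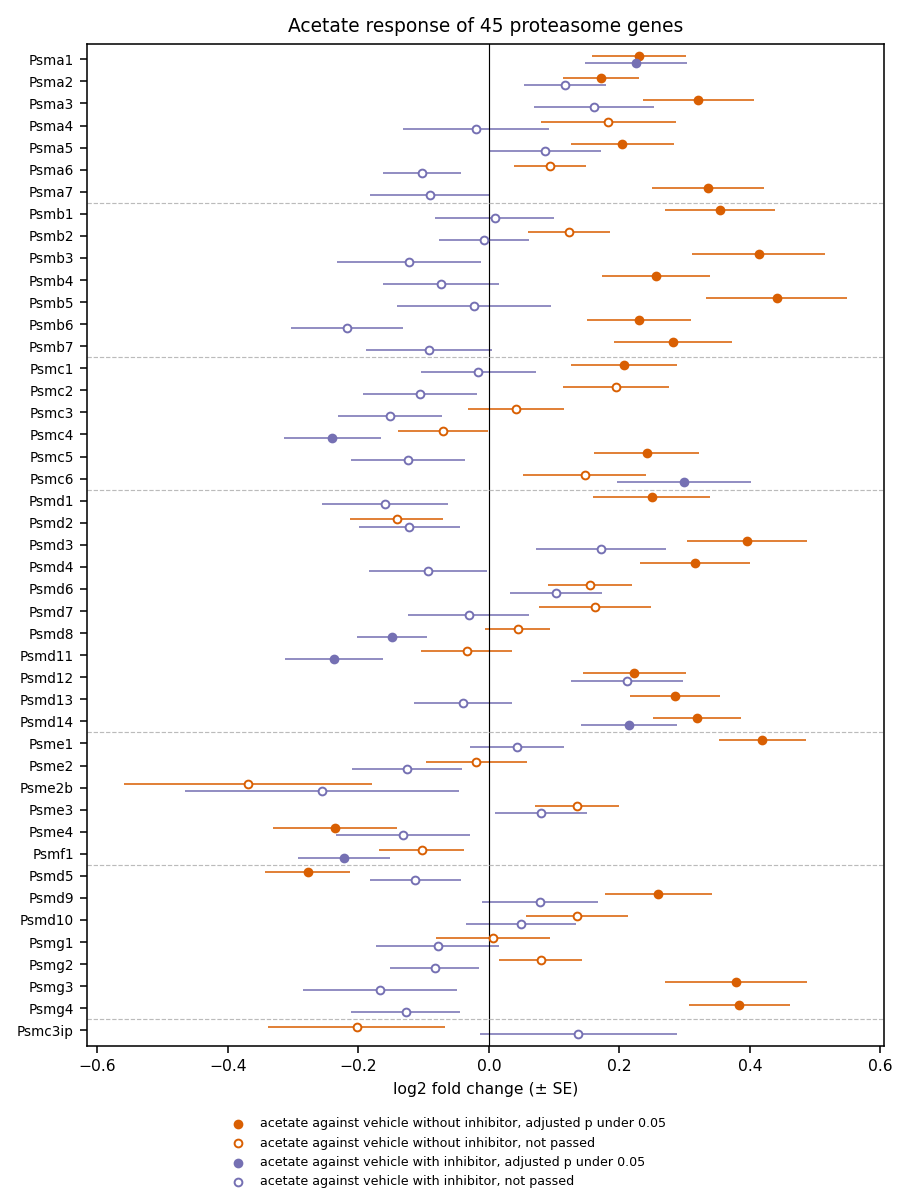
TMM-scaled log2 fold change with acetate of the 45 members, without inhibitor (orange) and with inhibitor (violet); bars are SE, filled points passed an adjusted p of 0.05, and dashed lines divide the role groups. Filled orange points lie mostly to the right of 0 (23 raised, 2 lowered), with the direction turning to 2 raised and 12 lowered under library totals and 0 and 45 under neuronal scaling, and of the violet points 3 are filled to the right of 0 and 4 to the left, turning to 0 and 7 under library totals and 0 and 45 under neuronal scaling.

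The second comparison put the same question to cultures that also received the inhibitor. Here 3 members rose (Psma1, Psmc6 and Psmd14) and 4 fell (Psmc4, Psmd8, Psmd11 and Psmf1), where 14.5% of all genes rose and 20.6% fell. The members' median was -0.08 against -0.03 over all genes, and 30 of 45 folds were below 0. With library totals 0 rose and 7 fell (12.4% and 22.7% of all genes), and with neuronal scaling 0 rose and 45 fell (0.683% and 75.5% of all genes). With the non-neuronal score as covariate 0 rose and 10 fell (5.11% and 6.47% of all genes), at a median of -0.16 against -0.01 over all genes. The fit of only the groups compared gave 0 raised and 1 lowered (11.7% and 15.3% of all genes), so the 3 raised calls were lost in each of these fits. Without DMSO vehicle 1 and inhibitor vehicle 2, 5 rose and 2 fell (22.5% and 26.7% of all genes), with a median of 0.02. Psmc6, an ATPase, went from 35.8, 45.9 and 41.4 CPM in inhibitor vehicle to 47.2, 51.1, 54.9 and 48.8 CPM in inhibitor acetate. Each acetate library was above each vehicle library. Its fold was 0.30 (SE 0.10, edgeR adjusted p = 0.0349), against 0.15 (SE 0.09) without inhibitor, and -0.36 with neuronal scaling. Psma1 and Psmd14 rose in both acetate comparisons: Psma1 by 0.23 without and 0.23 with inhibitor, and Psmd14 by 0.32 and 0.21. Psmd12, a lid subunit, had all inhibitor acetate libraries (77.2 to 84 CPM) above inhibitor vehicle (65.8 to 72.6 CPM), with a fold of 0.21 (SE 0.09, edgeR adjusted p = 0.0695) that did not pass.

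Psmc4, another ATPase, went from 251, 274 and 235 CPM to 214, 224, 193 and 228 CPM under the inhibitor. All acetate libraries were below all vehicle libraries. Its fold was -0.24 (SE 0.07, edgeR adjusted p = 0.0224), and ATPases of the same ring thus passed the test in opposite directions. Psmd11, the lid scaffold, fell by 0.24 (SE 0.08, edgeR adjusted p = 0.0246), Psmd8 fell by 0.15 (SE 0.05, edgeR adjusted p = 0.0439), and Psmf1, which encodes a protein that binds and inhibits the barrel in the test tube, fell by 0.22 (SE 0.07, edgeR adjusted p = 0.025). Of these 4 falls, those of Psmc4 (edgeR adjusted p = 0.0778) and Psmd8 (edgeR adjusted p = 0.141) did not pass without DMSO vehicle 1 and inhibitor vehicle 2. The catalytic subunits had folds of -0.02 (SE 0.12) for Psmb5, -0.22 (SE 0.09) for Psmb6 and -0.09 (SE 0.10) for Psmb7, none of which passed. The activators Psme1, Psme2, Psme3 and Psme4 had folds of 0.04, -0.13, 0.08 and -0.13 that did not pass either. By libraries, 3 members were wholly above and 9 wholly below, as were 16.4% and 16.4% of all genes. Inhibitor vehicle 2 bears on these values, since it had the group's highest summed level of the 31 subunits, 6377 CPM against 5545 and 5357 CPM, and its marker score of 2.30 was the lowest of the vehicle libraries. Members raised numbered 0 without inhibitor vehicle 1, inhibitor vehicle 3, inhibitor acetate 2 or inhibitor acetate 4, when 8.16%, 8.85%, 11.3% and 11.8% of all genes rose, and 5 without inhibitor vehicle 2, when 18.9% rose. Members lowered numbered 0 without inhibitor vehicle 1 or inhibitor acetate 3, when 12.3% and 17.2% of all genes fell.

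The difference between the acetate responses was tested as an interaction. No member passed in either direction with edgeR's quasi-likelihood test, where 0.0133% of all genes passed as raised and 0.00663% as lowered, while 17 of 45 members had an unadjusted p under 0.05, as did 20.7% of all genes. The DESeq2 Wald test called 9 members lowered and 0 raised, where it called 4.75% of all genes lowered and 1.74% raised. Of 45 differences 39 were below 0, with a median of -0.19 against 0.00 over all genes, though the median was -0.01 against 0.18 with library totals and 0.04 against 0.23 with neuronal scaling. The 7 beta subunits all had differences below 0, 6 of them at an unadjusted p under 0.05. The smallest p belonged to Psmg4, with a difference of -0.51 (SE 0.11, edgeR adjusted p = 0.0721). Psme1 followed with -0.38 (SE 0.10, edgeR adjusted p = 0.0724) and Psmb6 with -0.45 (SE 0.12, edgeR adjusted p = 0.0724). Psmb5 had -0.46 (SE 0.16, edgeR adjusted p = 0.12) and Psmb7 -0.37 (SE 0.13, edgeR adjusted p = 0.13). By contrast, Psma1 had a difference of 0.00 (SE 0.11) and Psmd12 of -0.01 (SE 0.12). The acetate response of the members is therefore not shown to differ with the inhibitor by the main test. Without inhibitor vehicle 3 edgeR called 9 members and 4.89% of all genes lowered, and without DMSO vehicle 1 and inhibitor vehicle 2 it called 1 member and 2.74% of all genes.

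The third comparison asked what the inhibitor does in cultures without acetate. It shares the DMSO vehicle libraries with the first comparison, so their values are only set side by side. Of 45 members, 1 rose (Psme1) and 1 fell (Psmc3ip), where 3.47% of all genes rose and 1.99% fell, and the median was 0.01 against 0.00 over all genes. None of the 31 subunits of the 26S complex passed. Psme1 went from 90.1, 101, 100.1 and 104 CPM in DMSO vehicle to 136, 137 and 120.1 CPM in inhibitor vehicle, without overlap. The fold was 0.41 (SE 0.07, edgeR adjusted p = 0.01), beside 0.42 (SE 0.07) for acetate against the same libraries, and 0.30 with neuronal scaling (edgeR adjusted p = 0.434). Psme2 had 0.01 (SE 0.08), which did not pass. Psmc3ip went from 10.9, 7.82, 7.32 and 7.39 CPM to 5.34, 5.33 and 4.76 CPM. All inhibitor vehicle libraries were below DMSO vehicle. Its fold was -0.70 (SE 0.15, edgeR adjusted p = 0.0206), and it did not pass when inhibitor vehicle 1 or inhibitor vehicle 2 was left out. Psmg3, the chaperone, had all inhibitor vehicle libraries (36.9 to 53.5 CPM) above DMSO vehicle (33.4 to 36.3 CPM), but its fold of 0.38 (SE 0.12, edgeR adjusted p = 0.0674) did not pass. Psmd6, a lid subunit, had them all below (72.5 to 81.7 CPM against 86.3 to 100 CPM), with -0.25 (SE 0.07, edgeR adjusted p = 0.0523). Psmb5, Psmb6 and Psmb7 had folds of 0.05 (SE 0.12), 0.07 (SE 0.09) and 0.12 (SE 0.10). With only the 7 libraries of these groups in the fit, 0 of 14977 genes passed in edgeR's quasi-likelihood test, members included. By libraries, 2 members were wholly above and 5 wholly below, as were 9.34% and 7.36% of all genes. Without DMSO vehicle 1 and inhibitor vehicle 2, again 1 member rose and 1 fell (2.71% and 2.6% of all genes), with the median at -0.02. Leaving out inhibitor vehicle 3 gave 2 members raised (6.57% of all genes), and leaving out DMSO vehicle 4 gave 2 lowered (2.23% of all genes).

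The last comparison set the inhibitor against DMSO in cultures that all received acetate, and shares the DMSO acetate libraries with the first. None of the 45 members rose and 11 fell, where 2.36% of all genes rose and 3.42% fell, and 10 of the 11 were subunits of the 26S complex. The median was -0.16 over the members and -0.22 over the 31 subunits against 0.00 over all genes, and 43 of 45 folds were below 0. With library totals 6 fell and none rose (1.76% and 5.25% of all genes), at a median of -0.07 against 0.10 over all genes. With neuronal scaling none passed (0.0531% of all genes fell and 0.252% rose), at -0.03 against 0.14. As a share of gene counts, the 31 subunits took 0.61% ± 0.02 of DMSO acetate (SD, n = 4) and 0.55% ± 0.01 of inhibitor acetate (SD, n = 4), and the highest inhibitor acetate library, at 0.56%, was below the lowest of DMSO acetate, at 0.58%. The marker score overlapped between these groups, at 2.47 to 2.56 in DMSO acetate and 2.26 to 2.56 in inhibitor acetate, and in the fit with it as covariate 20 members and 9.17% of all genes fell. Without DMSO vehicle 1 and inhibitor vehicle 2, 20 members and 10.7% of all genes fell, so that more genes were called in general in both fits. Single libraries left out gave 2 members lowered (without DMSO acetate 2, when 0.598% of all genes fell, or without inhibitor acetate 3, when 0.862% fell) to 15 (without inhibitor vehicle 2, when 5.78% fell).

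By role, 2 of 7 alpha, 4 of 7 beta, 2 of 6 ATPase and 2 of 11 other regulatory particle subunits fell, and all 31 had folds below 0 with TMM scaling, 30 with library totals and 26 with neuronal scaling. Psmg4 had the smallest p of the members, going from 32.8, 39.1, 31.5 and 31.9 CPM to 23.2, 23.6, 23.3 and 25.5 CPM. The groups were far from overlapping. The fold was -0.50 (SE 0.08, edgeR adjusted p = 0.00327). Psmd13, a lid subunit, went from 264, 301, 265 and 274 CPM to 208, 218, 199 and 213 CPM, again without overlap. Its fold was -0.40 (SE 0.07, edgeR adjusted p = 0.00669). Its exons overlap those of Sirt3 on the other strand, and whether its counts include reads of Sirt3 is uncertain. Psmd6 went from 95.5, 107, 104 and 100.2 CPM to 76.8, 85.6, 83.6 and 84.2 CPM. Every inhibitor library, with or without acetate, was below every DMSO library of this gene. The fold was -0.30 (SE 0.06, edgeR adjusted p = 0.0184).

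Among the beta subunits, Psmb6 fell by 0.38 (SE 0.08, edgeR adjusted p = 0.0165), Psmb5 by 0.41 (SE 0.11), Psmb3 by 0.43 (SE 0.10) and Psmb4 by 0.31 (SE 0.08). All inhibitor acetate libraries of these 4 genes were below all DMSO acetate libraries, and the catalytic Psmb7, with -0.25 (SE 0.09, edgeR adjusted p = 0.114), was below in all libraries but did not pass. Psma6 (-0.20), Psma7 (-0.31), Psmc2 (-0.29) and Psmc5 (-0.30) fell with edgeR adjusted p between 0.0426 and 0.0499, and all 4 missed the threshold with RLE scaling (3% of all genes fell), when only Psmb3, Psmb4, Psmb5, Psmb6, Psmd6, Psmd13 and Psmg4 passed. The folds of the activators did not pass: 0.03 (SE 0.07) for Psme1, -0.09 (SE 0.08) for Psme2, -0.08 (SE 0.06) for Psme3 and -0.20 (SE 0.10) for Psme4. Psmc6 and Psmd5, with -0.06 and 0.00, also did not. By libraries, 27 of 45 members, 24 of them among the 31 subunits, had all inhibitor acetate libraries below all DMSO acetate libraries, as did 12.4% of all genes, and none was wholly above, as were 8.96%.

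**Figure D5:**
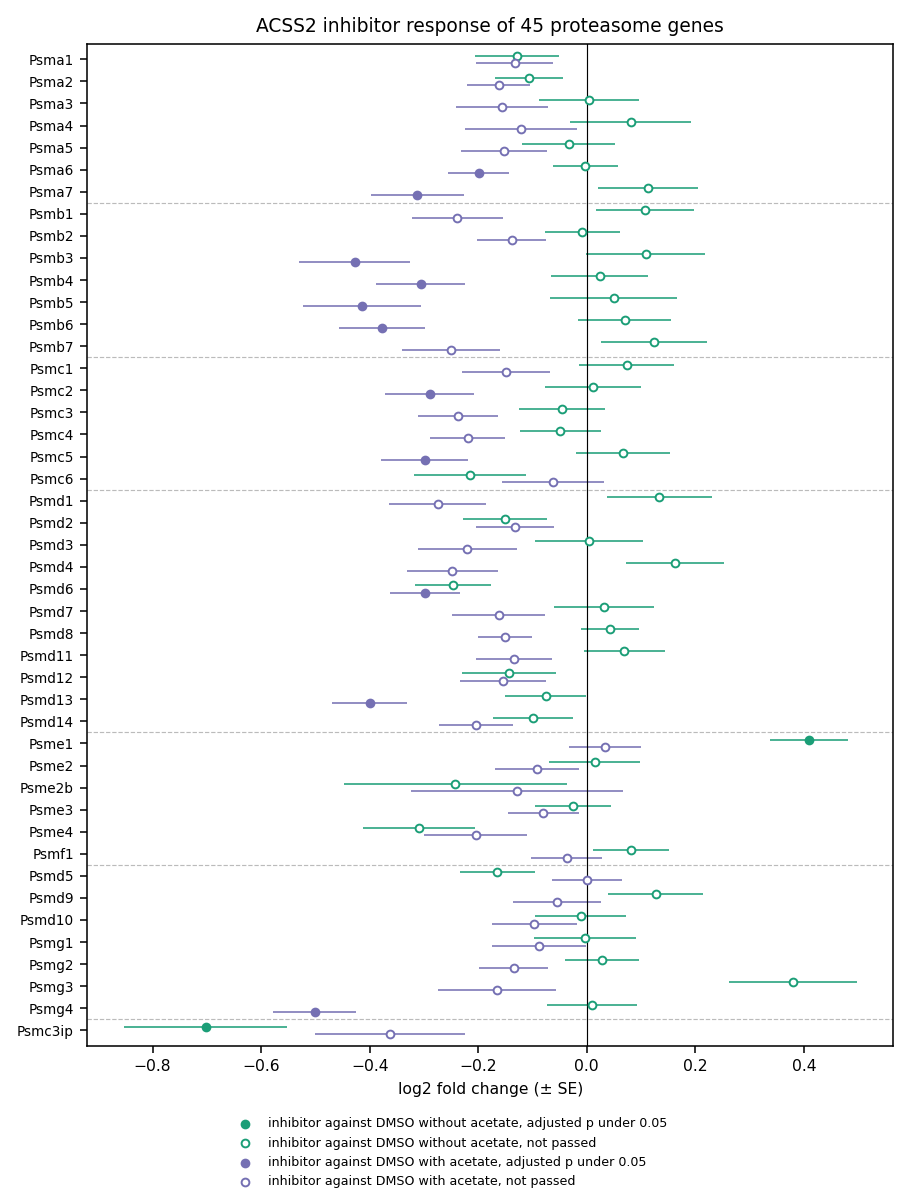
TMM-scaled log2 fold change with the ACSS2 inhibitor of the 45 members, without acetate (green) and with acetate (violet); bars are SE and filled points passed an adjusted p of 0.05. Violet points of all 31 subunits of the 26S complex lie left of 0 (30 with library totals and 26 with neuronal scaling), and the filled green points are Psme1 and Psmc3ip.

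Of the 3 immunoproteasome genes, Psmb8 and Psmb9 fell with acetate without inhibitor, Psmb8 and Psmb10 fell with acetate in the presence of the inhibitor, and no difference from the standard subunits was tested. Psmb8 (chr17:34197721-34201454, plus strand) stood at 4.59, 21.2, 17.4 and 19.1 CPM in the DMSO vehicle libraries, 2.91, 3.66, 2.95 and 3.57 CPM in DMSO acetate, 14.7, 2.46 and 17.3 CPM in inhibitor vehicle and 2.18, 2.20, 1.62 and 2.52 CPM in inhibitor acetate. It was low in every acetate library and also in DMSO vehicle 1 and inhibitor vehicle 2, the libraries low in non-neuronal markers. It fell with acetate by 2.25 (SE 0.49, edgeR adjusted p = 0.00173) without inhibitor and by 2.43 (SE 0.53, edgeR adjusted p = 0.00402) with it, but had a fold of 0.43 without inhibitor when the marker score was a covariate. Psmb9 fell by 0.76 (SE 0.25, edgeR adjusted p = 0.0183) without inhibitor, and had 0.31 with that covariate. Psmb10 (chr8:105935735-105938444, minus strand) stood at 53.3, 58.9, 62 and 65.2 CPM in the DMSO vehicle libraries, 54.3, 65.1, 58.3 and 57.1 CPM in DMSO acetate, 63.7, 76.2 and 57.6 CPM in inhibitor vehicle and 45.3, 47.2, 43.8 and 43.4 CPM in inhibitor acetate. Its 4 inhibitor acetate libraries were the lowest of all 15. Acetate gave -0.03 (SE 0.09, edgeR adjusted p = 0.807) without and -0.55 (SE 0.10, edgeR adjusted p = 0.00115) with the inhibitor, and the inhibitor gave -0.39 (SE 0.09, edgeR adjusted p = 0.0237) in the presence of acetate. The difference of its acetate responses, -0.52 (SE 0.13, edgeR adjusted p = 0.0721), did not pass.

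Genes that work with the proteasome were described from lists chosen for the pathway, in the acetate comparison without inhibitor unless stated, where 23.7% of all genes rose and 27.5% fell. Of 5 other subunits and assembly factors measured, 2 rose, Adrm1, a ubiquitin receptor, by 0.28 and Shfm1, a small lid subunit now called Sem1, by 0.31, and with neuronal scaling their folds were -0.61 and -0.61.

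Of 14 proteasome-bound enzymes and shuttle factors, 7 rose and 1, Ddi2, fell. Ddi2, the protease that activates Nrf1, stood at 4.34 ± 0.352 CPM (SD, n = 4) in DMSO vehicle and 1.52 ± 0.524 CPM (SD, n = 4) in DMSO acetate without overlap, and all inhibitor vehicle libraries were below DMSO vehicle. Its fold with acetate was -1.50 (SE 0.24, edgeR adjusted p = 0.000205), and -0.21 (SE 0.25, edgeR adjusted p = 0.537) with the inhibitor present. None of these 14 genes passed in the difference of acetate responses, so the Ddi2 response is not shown to differ with the inhibitor. The shuttle factor Ubqln4 rose by 0.42 (SE 0.08, edgeR adjusted p = 0.000518), and -0.47 was its fold under neuronal scaling. With the inhibitor, 7 of these 14 rose with acetate and none fell, where 14.5% of all genes rose and 20.6% fell, among them Usp14, the deubiquitinase bound to the base, by 0.32 (SE 0.08, edgeR adjusted p = 0.00761), and Rad23b by 0.34 (SE 0.09, edgeR adjusted p = 0.0101), with folds of -0.34 and -0.33 under neuronal scaling. Of the 6 genes of the Nrf1 and unfoldase system, 1 rose, Vcp, the unfoldase, by 0.25 (-0.64 under neuronal scaling), and 3 fell. Nfe2l1 itself had 0.11 (SE 0.07, edgeR adjusted p = 0.201) without inhibitor and rose by 0.23 (SE 0.07, edgeR adjusted p = 0.0245) with it, the latter -0.44 under neuronal scaling. Nfe2l2, the related factor of the oxidative stress response, fell by 1.04 (SE 0.20, edgeR adjusted p = 0.000632) without and 0.61 (SE 0.21, edgeR adjusted p = 0.0356) with the inhibitor. None of these 6 genes passed in the difference of acetate responses either. For the falls of Ddi2 and Nfe2l2 without inhibitor, acetate and the non-neuronal score cannot be cleanly told apart.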

How the data were processed

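The 15 RNA-seq libraries of neuron cultures were made with a directional kit, per the labels. The deposited table holds raw read counts per gene symbol, made by the authors. The tools STAR 2.5.2a, HTSeq 0.6.1p1 and DESeq2 and the build mm10 come from the list in the submitters' processing notes, while annotation, counting mode and strand use were not given in the sources used here. Rows without a gene (38.9% to 47.4% of each library) were dropped. All 21 within-group pairs of libraries differed by more than sampling noise (chi-square per gene 4.65 to 144).

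Counts were fitted with edgeR 4.0.16 and limma 3.58.1 under R 4.3.3, using filterByExpr (minimum count 10), TMM scaling, 1 quasi-likelihood fit with 4 group means, and Benjamini-Hochberg adjustment over 15075 genes in each of 5 comparisons. The biological coefficient of variation was 16.8%. Log2 CPM used a prior count of 2. Exon lengths and coordinates are GENCODE M21 (GRCm38). The steps were tested on simulated data in which few genes changed and the mix of cells did not. That test does not bear on the choice of scaling.

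Members and lists were chosen with earlier results of these data known. Named were the 2 members of each role group and the 2 genes of each pathway list with the smallest p in a comparison, the catalytic subunits, Psme1 to Psme4, and Psmb8 to Psmb10; others are named to complete a count, and Psmd12 in the second comparison was named after its values were seen. Some genes that this rule names are not reported here. Alternatives were RLE and upper-quartile scaling, DESeq2 1.42.0, 2 filters, fits of the compared groups, a replicate block, libraries left out, neuronal scaling, a marker covariate and library totals.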

Additional observations from a re-analysis of the deposited data

Results flagged for a closer look

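In 4 of the 54 groups of 4 libraries checked for the members named in the first comparison, 1 library stood far from the others, where chance flags about 1 in 20 groups. Psmb5 was at 65.1 CPM in DMSO vehicle 2 against 77.4 to 78.8 CPM in the other DMSO vehicle libraries. Psme4 was at 24.7 CPM in inhibitor acetate 2 against 31.5 to 32.6 CPM in its group. Psmc3ip was at 10.9 CPM in DMSO vehicle 1 against 7.32 to 7.82 CPM, and at 6.66 CPM in inhibitor acetate 1 against 5.31 to 5.33 CPM.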

How the results depend on the processing

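Counts below are members raised or lowered with acetate without inhibitor (A), with acetate under the inhibitor (B), in the difference of both (D), with the inhibitor alone (I) and with the inhibitor in acetate (J), and the cause of each change was not tested. Reported counts were 23 and 2 in A, 3 and 4 in B, 0 and 0 in D, 1 and 1 in I, 0 and 11 in J. Percentages in brackets are the shares of all genes with the same call. Mainly the larger changes are listed, and counts not listed also moved in some fits. With DESeq2, for example, 25 were raised in A (24.7%) and 16 lowered in J (5.76%). RLE scaling lowered 1 in A (27%) and 7 in J (3%). Upper-quartile scaling lowered 4 in A (31.5%) and 2 in I (2.46%). DESeq2 lowered 9 in D (4.75%), and raised 2 (6.33%) and lowered 3 (4.52%) in I. With no filter on low counts (19975 genes tested), 1 was lowered in A (20.8%) and 6 in J (1.95%), and with the stricter filter 2 in I (2.38%). Fits of only the groups compared raised 0 (11.7%) and lowered 1 (15.3%) in B. They raised 0 (0%) and lowered 0 (0%) in I, and lowered 18 in J (10.6%). Without DMSO vehicle 1 and inhibitor vehicle 2 together, 1 was lowered in A (31.6%), 5 raised (22.5%) and 2 lowered (26.7%) in B, 1 lowered in D (2.74%) and 20 in J (10.7%). Neuronal scaling gave 0 raised and 45 lowered in A (0.869% and 87.7%) and in B (0.683% and 75.5%). It gave 0 and 0 in I (0.073% and 0.106%), and 0 lowered in J (0.0531%). The score covariate raised 2 (8.34%) and lowered 1 (6.91%) in A, and raised 0 (5.11%) and lowered 10 (6.47%) in B. It lowered 4 in D (4.29%), 4 in I (7%) and 20 in J (9.17%). Library totals alone, an alternative chosen after seeing the data, raised 2 (12.1%) and lowered 12 (45%) in A. They raised 0 (12.4%) and lowered 7 (22.7%) in B, and lowered 2 in I (3.9%) and 6 in J (1.76%). Leaving out single libraries gave 13 to 26 raised and 1 to 2 lowered in A, 0 to 5 and 0 to 4 in B, 0 and 0 to 9 in D, 1 to 2 and 0 to 2 in I, and 0 and 2 to 15 in J. The shares of all genes at most of these extremes are given with each comparison above. With the replicate block, 1 was lowered in A (25.8%) and 5 in J (1.87%), and 21 were raised in A (22.4%). The labels do not say that numbers pair libraries, and same-numbered libraries of different groups correlated at -0.65 to 0.38 in their deviations (median -0.10, 6 of 21 pairs over 0.1), so no pairing was read from them.

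Folds of named genes that changed sign and passed in at least 1 of the fits compared did so mainly under neuronal scaling. The median of members went there to -0.70 in A, 0.038 in D and -0.090 in I. In A the folds became -0.46 (Psmb5), -0.68 (Psmb6), -0.61 (Psmb7), -0.50 (Psme1), -0.77 (Psme3), -0.57 (Psma7), -0.58 (Psma3), -0.54 (Psmb1), -0.49 (Psmb3), -0.66 (Psmc5), -0.69 (Psmc1), -0.58 (Psmd14), -0.49 (Psmd3), -0.54 (Psmg4), -0.61 (Adrm1), -0.61 (Shfm1), -0.47 (Ubqln4) and -0.64 (Vcp). In B they became -0.63 (Psme1), -0.61 (Psme3), -0.44 (Psma1), -0.55 (Psma2), -0.36 (Psmc6), -0.45 (Psmd14), -0.54 (Psmc3ip), -0.34 (Usp14), -0.33 (Rad23b), -0.44 (Nfe2l1) and -0.18 (Stat2). With the score covariate they were -0.027 for Psmb7, 0.43 for Psmb8, 0.31 for Psmb9 and -0.0088 for Psmc1 in A. With library totals the median was -0.028 and Psmc1 -0.014 in A. The median in B was 0.024 without inhibitor vehicle 2, and 0.023 without DMSO vehicle 1 as well. For single genes named in the text, 3241 of 3718 values kept direction and side of the threshold, 268 no longer passed, 101 newly passed, 34 that passed in at least 1 of the fits compared changed sign, and 74 that passed in neither changed sign.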

Other observations

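Interferon-stimulated genes, the set that includes the transporters and regulators induced together with the immunoproteasome, were lower with acetate with TMM scaling. The non-neuronal score was lower in DMSO acetate than in DMSO vehicle as well, so acetate and score cannot be cleanly told apart for these falls. Of 15 measured, 12 fell without the inhibitor with edgeR's quasi-likelihood test, where 27.5% of all genes fell, and none rose. Their summed level was 319 to 617 CPM in DMSO vehicle and 280.8 to 287 CPM in DMSO acetate, and 263 CPM in inhibitor vehicle 2 against 519 and 569 CPM in the other inhibitor vehicle libraries. DMSO vehicle 1, at 319 CPM, was again the lowest of its group, and both libraries were also the lowest of their groups in the non-neuronal score. Irf1, a transcription factor of the interferon response, fell by 1.39 (SE 0.20, edgeR adjusted p = 0.00011), and Irf9, which joins the activated STAT proteins, fell by 0.95 (SE 0.13, edgeR adjusted p = 7.92e-05). With the inhibitor, acetate lowered 9 of the 15 and raised 1, Stat2, by 0.49 (SE 0.09, edgeR adjusted p = 0.00123), with -0.18 under neuronal scaling, where 20.6% of all genes fell and 14.5% rose. Irf9 fell there by 0.66 (SE 0.14, edgeR adjusted p = 0.00336). The inhibitor alone lowered 1 of 15, Isg15, a ubiquitin-like protein, by 1.38 (SE 0.37, edgeR adjusted p = 0.0457), where 1.99% of all genes fell. That call was close to the threshold, and 0 of 14977 genes passed when only the groups compared were fitted. In acetate the inhibitor raised 1 of 15, Stat2, by 0.37 (SE 0.08, edgeR adjusted p = 0.0168), where 2.36% of all genes rose.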
